A study of Mus musculus with 12 samples.

Results

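Acetylation of lysine 27 on histone H3 (H3K27ac), a mark of active promoters and enhancers, was examined around 7 Toll-like receptor genes (Tlr1, Tlr2, Tlr3, Tlr4, Tlr5, Tlr6 and Tlr9), the co-receptor genes Cd14 and Ly96, and the adaptor gene Myd88 in mouse microglia. These 10 genes, of 15879 with a window, were chosen by name. Every window that the deposited table assigned to one of them within 100 kb of its transcription start site (TSS) was taken, which gave 63 windows of 67822. A further window of Ly96, at 109991 bp, was left out. The groups were Nlrp3-/- mice, described as Cias1-knockout mice from Millennium Pharmaceuticals, and wild-type mice with a C57BL/6N background. Each genotype had 3 H3K27ac immunoprecipitation libraries and 3 input libraries, all from CD11b+ cells that magnetic beads captured out of dissociated forebrain. Age, sex, any treatment, and whether the libraries of a group came from separate animals are not in the labels. The p-values therefore measure the spread between these libraries, which may be technical.

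Toll-like receptors recognise conserved microbial molecules and the host's own released molecules. Tlr2 pairs with Tlr1 or Tlr6 to bind bacterial lipopeptides, and Tlr4 binds lipopolysaccharide together with MD-2, the product of Ly96, after transfer of the ligand by Cd14. Tlr5 binds flagellin, Tlr3 binds double-stranded RNA in endosomes, and Tlr9 binds unmethylated CpG DNA there. All of these receptors except Tlr3 signal through Myd88, and the pathway that follows activates NF-kB, which induces Nlrp3 and the precursor of IL-1 beta in macrophages. Microglia, the resident macrophages of the brain, use these receptors to sense infection and injury.

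The H3K27ac libraries held 3726550 to 5028129 tags and the input libraries 3287009 to 6961590. In the targeted gene, the Nlrp3 promoter window 52 bp from a TSS held 1, 0 and 16 tags in the knockout libraries, against 180, 180 and 195 in the wild-type libraries. In the neighbouring promoter window, 49 bp from a TSS, the knockout libraries held 17, 20 and 43 tags and the wild-type libraries 138, 91 and 119. Knockout replicate 3 was the highest knockout library in both windows, and no knockout library reached any wild-type one. Promoter windows of 13 microglial marker genes stood at 15.5 times input in the knockout and 13.2 times in wild type. Those of 4 border macrophage markers stood at 1.89 times in the knockout and 1.14 times in wild type, and that of the only monocyte and neutrophil marker with such a window at 0.99 times in the knockout and 1.37 times in wild type. Promoter windows of 4 oligodendrocyte markers stood higher, at 4.06 times input in the knockout and 3.54 times in wild type, and those of 4 endothelial and mural markers at 4.91 times in the knockout and 3.85 times in wild type. The single astrocyte marker window stood at 1.33 times in the knockout and 0.99 times in wild type, the single neuronal one at 0.83 times in the knockout and 1.44 times in wild type, and no lymphocyte marker had one. The part of other cell types in the results was not tested. Knockout libraries held 183 to 239 H3K27ac tags at promoters of Ddx3y, Eif2s3y and Uty, which are Y-linked, and wild-type replicates 2 and 3 held 230 and 199, but wild-type replicate 1 held 0. That library therefore did not share its source with the other wild-type libraries, and results are also given without it. The input of wild-type replicate 1 also held 0 such tags, against 13 and 10 in the inputs of replicates 2 and 3. In bulk chromatin, fewer cells of a type and less acetylation per cell cannot be told apart.

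The promoters of the members differ in base composition and in the short motifs they carry. RefSeq promoters on GRCm38.p6, from 250 bases before to 50 bases after a start, were matched by symbol to 7 of the 10 members, with 9 promoters in all. The 6 below are shown because they span the order of promoter acetylation given in the next paragraph, from Tlr6 at the top to Tlr5 at the bottom. Capitals mark matches, on either strand, to 6 motifs: the ETS core GGAAGT, the NF-kB motif GGGNNTTCC, the AP-1 motif TGANTCA, the interferon regulatory factor (IRF) core AANNGAAA, the GC box GGGCGG and the TATA box TATAAA.
Tlr6: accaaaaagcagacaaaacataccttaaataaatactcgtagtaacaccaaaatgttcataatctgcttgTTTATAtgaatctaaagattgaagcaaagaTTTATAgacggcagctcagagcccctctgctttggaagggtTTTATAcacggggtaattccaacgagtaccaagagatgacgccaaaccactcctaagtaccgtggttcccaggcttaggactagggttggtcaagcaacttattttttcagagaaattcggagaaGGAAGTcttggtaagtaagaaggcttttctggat
Tlr9: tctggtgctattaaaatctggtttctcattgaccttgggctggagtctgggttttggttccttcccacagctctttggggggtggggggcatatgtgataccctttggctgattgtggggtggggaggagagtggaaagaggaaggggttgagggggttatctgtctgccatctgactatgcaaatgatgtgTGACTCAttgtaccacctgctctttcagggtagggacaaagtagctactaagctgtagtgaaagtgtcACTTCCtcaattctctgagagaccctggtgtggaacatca
Myd88: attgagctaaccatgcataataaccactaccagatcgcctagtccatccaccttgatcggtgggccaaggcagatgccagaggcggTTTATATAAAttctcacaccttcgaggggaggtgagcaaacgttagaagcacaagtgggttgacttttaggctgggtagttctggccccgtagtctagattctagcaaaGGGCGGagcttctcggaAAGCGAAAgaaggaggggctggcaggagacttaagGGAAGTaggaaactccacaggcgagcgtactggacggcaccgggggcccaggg
Tlr2: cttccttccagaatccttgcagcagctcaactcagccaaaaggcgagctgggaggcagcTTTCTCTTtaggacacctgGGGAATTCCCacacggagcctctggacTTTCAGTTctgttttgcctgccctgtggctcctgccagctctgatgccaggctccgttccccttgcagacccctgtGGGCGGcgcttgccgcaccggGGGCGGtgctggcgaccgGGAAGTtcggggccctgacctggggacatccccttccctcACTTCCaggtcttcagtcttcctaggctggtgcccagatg
Tlr3: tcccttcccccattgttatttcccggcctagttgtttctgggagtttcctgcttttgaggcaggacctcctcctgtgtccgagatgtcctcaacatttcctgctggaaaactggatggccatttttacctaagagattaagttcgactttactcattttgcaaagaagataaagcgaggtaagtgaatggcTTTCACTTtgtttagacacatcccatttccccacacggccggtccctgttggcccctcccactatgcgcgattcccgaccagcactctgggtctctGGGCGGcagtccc
Tlr5: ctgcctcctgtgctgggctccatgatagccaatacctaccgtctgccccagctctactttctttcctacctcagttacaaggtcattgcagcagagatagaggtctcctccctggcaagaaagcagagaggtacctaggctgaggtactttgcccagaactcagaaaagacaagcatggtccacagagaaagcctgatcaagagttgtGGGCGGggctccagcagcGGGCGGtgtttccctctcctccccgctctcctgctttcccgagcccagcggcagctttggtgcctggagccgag
Tlr6 (chr5:64959999-64960298, minus strand) was poor in G and C at 40.3%, against a median of 52.7% over 32817 promoters, and held 3 TATA matches on the reverse strand. Its other promoter (chr5:64959117-64959416), not printed, was 43.0% G and C. It held 0 TATA matches, 1 ETS core and 4 IRF cores, and 157 of its bases lie in the Tlr6 window 336 bp downstream. Tlr9 (chr9:106222348-106222647, plus strand), whose protein detects CpG DNA, had no CpG dinucleotide in this stretch, so its observed over expected CpG ratio was 0, against a median of 0.38. Tlr2 (chr3:83841559-83841858, minus strand) held 2 NF-kB matches, which overlap each other on opposite strands and are marked as 1 run of capitals, and 2 IRF cores. Myd88 (chr9:119339969-119340268, minus strand) held 1 IRF core and 2 TATA matches that overlap each other. Tlr3 (chr8:45410331-45410630, minus strand) held 1 GC box and 1 IRF core, and Tlr5 (chr1:182954538-182954837, plus strand) held 2 GC boxes. The ETS core was found in 6 of the 9 member promoters and in 23.8% of all promoters. The NF-kB motif was found in 1 of the 9 and in 5.82% of all, the AP-1 motif in 1 and 7.81%, the IRF core in 5 and 23.9%, the GC box in 4 and 35.6%, and the TATA box in 2 and 13.6%. These matches describe letters only. The Tlr6, Tlr9, Myd88, Tlr2 and Tlr3 sequences lie whole inside a window of the table, whereas only 10 bases of the Tlr5 sequence do, and neither Tlr1 promoter shares a base with a Tlr1 window.

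Promoter acetylation covered a wide range, with Tlr6 highest and Tlr5 lowest. The window nearest to each TSS was used, and since all windows are 1000 bp long, the levels, given as CPM with all tags of a library scaled to a total of 1000000 (library CPM), are per equal length. The Tlr6 window (18 bp upstream, chr5:64959614-64960614, mm10) had 39.9, 46.3 and 38.4 in the knockout libraries, against 51.8, 47.6 and 52.4 in the wild-type libraries. Every knockout library lay below every wild-type library here. Its mean over the 6 libraries was 46.1, which placed it at percentile 99.7 of 11591 promoter windows taken 1 per gene. The Tlr9 window (47 bp upstream, chr9:106222051-106223051) followed with 29.3, 29.6 and 26.6 in the knockout libraries and 40.5, 33.2 and 30.7 in the wild-type libraries, at percentile 97.8. Ly96 had 24.1, 30.2 and 24.2 in the knockout libraries and 28.2, 20.7 and 23.2 in the wild-type libraries, at percentile 95.2. On this scale the genotypes overlapped in Ly96 and not in Tlr9, and the share of all windows without overlap was not computed. On the scale used below for the test between genotypes, they overlapped in Tlr9 too. There 10.9% of all tested windows showed no overlap. Cd14 averaged 19.4 (percentile 90.4) and Myd88 14.1 (percentile 82.2).

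A second tier of promoters lay close together and near the middle of the genome-wide range. Tlr2 averaged 9.0, Tlr3 8.90, Tlr4 8.35 and Tlr1 7.45 library CPM, from percentile 66.4 down to 59.6, with a median of 5.77 over all promoter windows. Tlr3 spread most among these, with 7.28, 4.18 and 13 in the knockout libraries and 11.0, 12 and 5.91 in the wild-type libraries. The place of Tlr2 rests on the window nearest to its TSS. Its other window within 1 kb, 448 bp downstream, stood higher, at a mean of 14.1 in the knockout and 17.3 in wild type. The place of Tlr1 rests on a window 827 bp upstream of a TSS, which shares no base with either RefSeq promoter of that gene. Tlr5 was the lowest at 1.92 (percentile 22.1). Its knockout libraries held 8, 0 and 10 tags, against 7, 22 and 4 in the wild-type libraries, and the window was too low to be tested. Neighbours in the order overlapped in range over the 6 libraries at every step. Within both genotypes at once, Tlr6 stood apart from Tlr9, Cd14 from Myd88, and Tlr1 from Tlr5. In the knockout libraries alone Ly96 stood apart from Cd14, Myd88 from Tlr2 and Tlr4 from Tlr1, and in the wild-type libraries alone Tlr9 stood apart from Ly96.

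**Figure D1:**
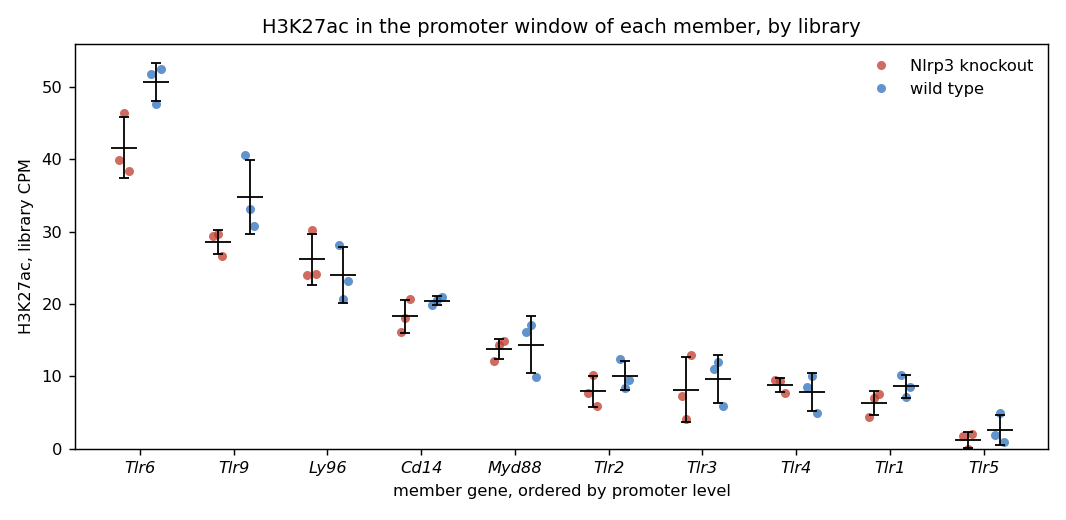
H3K27ac in the promoter window of each of the 10 genes, in library CPM, with 1 dot per library and bars for the mean ± SD (n = 3 per genotype, knockout left of wild type). Tlr6 stood highest, at a mean of 46.1 over the 6 libraries, and Tlr5 lowest, at 1.92.

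Nearly all tested windows carried H3K27ac above input. The test was edgeR's quasi-likelihood test on all 12 libraries scaled to total tags, and a window was called at a Benjamini-Hochberg adjusted p under 0.05. Of the 63 windows 47 had enough tags to be tested. In the knockout 43 were called higher than input, where 91.7% of all tested windows were, and in wild type 42, where 88.7% were. None was called lower, where 0.371% of all windows were in the knockout and 0.315% in wild type. Of these windows 41 were called in both genotypes, and the shares are close to those of all windows. Of the 15 tested promoter windows 14 were called in each genotype, where 96.2% of all promoters were in the knockout and 94.1% in wild type. The exception was the Tlr5 window 945 bp upstream. Distal windows, more than 1 kb from the TSS, were called in 29 of 32 cases in the knockout and 28 in wild type. The share among all distal windows was not computed. Over all tested windows at any distance it was 91.7% in the knockout and 88.7% in wild type, so these counts set the members apart in nothing.

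The ratio to input was steepest at Tlr9. Its 2 promoter windows stood at 41.2 and 33.1 times input in the knockout, against 24.1 and 32.8 times in wild type. The Tlr6 window at the TSS stood at 18.2 times in the knockout and 20.3 times in wild type, and the Ly96 window at 19.5 times in the knockout and 14.7 times in wild type. Tlr5 had the weakest signal, with ratios across its 14 windows of 0.524 to 3.89 in the knockout and 0.548 to 3.86 in wild type. Whether the enrichment over input differed between genotypes was tested in the same edgeR fit. No member window was called, as in the whole table (0 of 40663 windows), and 2 had an unadjusted p under 0.05, where 4.34% of all windows did. In the Tlr9 window at the TSS the fitted difference in enrichment, knockout minus wild type, was 1.85 on the log2 scale (95% interval 0.22 to 3.47, edgeR adjusted p = 0.999), and the input there held 1, 0 and 2 tags in the knockout libraries against 5, 6 and 2 in the wild-type libraries. In the Tlr2 window 448 bp downstream the difference was −1.38 (95% interval −2.76 to −0.0065, edgeR adjusted p = 0.999). The input there held 11, 8 and 3 tags in the knockout libraries against 4, 2 and 3 in the wild-type libraries. For H3K27ac alone the log2 fold change of that window was −0.27 (95% interval −0.88 to 0.34).

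**Figure D2:**
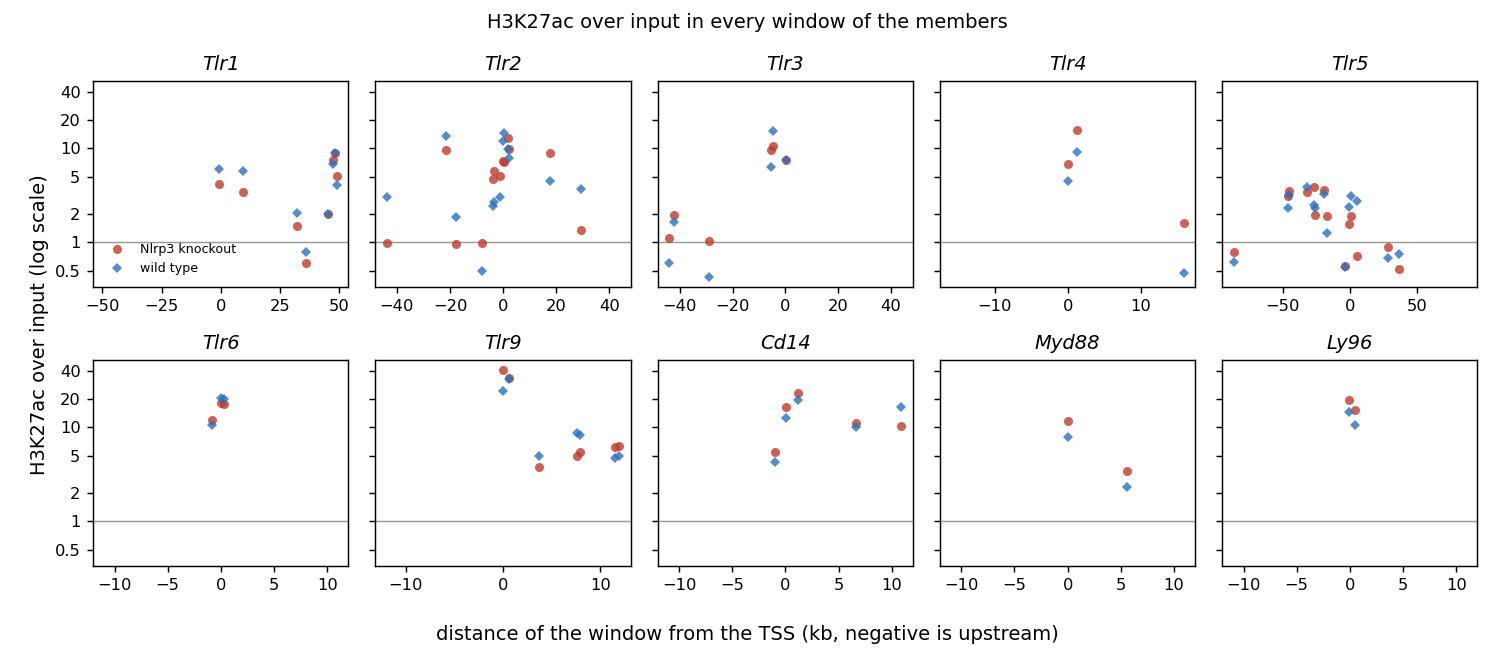
H3K27ac over input (log scale) in every window of each gene against the window's distance from the TSS in kb, for the knockout and wild type (group means of 3 libraries, with 0.5 added to both sides of the ratio). Tlr6 and Ly96 held all their windows within 1 kb, whereas Tlr5 windows ran from 86192 bp upstream to 36338 bp downstream and stayed at or below 3.89 times input.

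The lipopeptide receptors Tlr1, Tlr2 and Tlr6 differed in how their acetylation was spread. Tlr6 had 3 windows, all within 855 bp of the TSS, of which the middle one overlaps both others and shares tags with them. Tlr2 had 13 windows, of which 4 overlap the one before, and only 27.3% of its tags lay within 1 kb of the TSS. Its highest window was intergenic, 21516 bp upstream (chr3:83862624-83863624), with 68, 96 and 82 tags in the knockout libraries and 55, 72 and 97 in the wild-type libraries, at 9.49 times input in the knockout and 13.5 times in wild type. The 2 farthest downstream Tlr2 windows lie in the annotated gene Gm7115. Tlr1 had 8 windows, and its highest, 48238 bp downstream (chr5:64883961-64884961), lies in the annotated gene Gm31889. That window held 68, 67 and 32 tags in the knockout libraries against 57, 56 and 27 in the wild-type libraries. The Tlr1 promoter window held 20, 35 and 37 tags in the knockout libraries and 38, 32 and 36 in the wild-type libraries, less than the distal window in replicates 1 and 2 of both genotypes and more in replicate 3. A Tlr1 window 35901 bp downstream held 0 H3K27ac tags in all 6 libraries. The table assigns windows to the nearest TSS, so which gene a distal window serves is not known.

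The lipopolysaccharide receptor group differed in spread. Of the tags in windows within 100 kb, 33.7% lay within 1 kb of the TSS for Tlr4, 25.2% for Cd14 and all for Ly96. The cut at 1 kb weighs on these shares, since Tlr4 has a window 1312 bp from the TSS and Cd14 has windows at 1019 and 1214 bp. Tlr4, the receptor chain, had 3 windows, and its highest lay in the first intron, 1312 bp downstream (chr4:66828363-66829363), with 79, 80 and 55 tags in the knockout libraries and 47, 62 and 75 in the wild-type libraries. That window stood at 15.7 times input in the knockout and 9.15 times in wild type, and it carried 59.4% of the gene's tags. Ly96 had 2 overlapping windows, both within 1 kb. The second of them, 471 bp downstream, held 89, 126 and 79 tags in the knockout libraries against 69, 48 and 65 in the wild-type libraries, with every knockout library above every wild-type one. Cd14, a surface and soluble lipopolysaccharide-binding protein, had 5 windows of which 3 are intergenic. Its window 1214 bp downstream stood at 23.5 times input in the knockout and 19.8 times in wild type, above its promoter window at 16.3 times in the knockout and 12.6 times in wild type. The window 10851 bp downstream of the Cd14 TSS lies in the annotated gene Gm41699 and stood at 10.4 times input in the knockout and 16.6 times in wild type.

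The endosomal receptors, the flagellin receptor and the adaptor completed the set. Tlr3 had its highest window 4556 bp upstream (chr8:45414675-45415675), with 59, 103 and 58 tags in the knockout libraries and 73, 69 and 61 in the wild-type libraries, at 10.6 times input in the knockout and 15.2 times in wild type. Its promoter window stood lower, at 7.56 times in the knockout and 7.49 times in wild type. Tlr9 had 7 windows that reach 11919 bp downstream, the last 2 inside the neighbouring gene Alas1, and 58.7% of its tags lay within 1 kb. Tlr5 had the most windows, 14, of which 10 are intergenic and 7 were too low to be tested, and its farthest upstream window lies in Susd4. Myd88 had 2 windows, and 84.0% of its tags lay in the one at the TSS (chr9:119339546-119340546). That window held 55, 72 and 73 tags in the knockout libraries and 60, 77 and 42 in the wild-type libraries, at 11.6 times input in the knockout and 7.83 times in wild type.

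Summed per gene, no member was called between knockout and wild type. The sums took all windows of a gene within 100 kb, and edgeR's quasi-likelihood test compared 3 knockout with 3 wild-type H3K27ac libraries over 12148 genes. All 10 members were tested and 0 were called, where 0.206% of all genes were, and 1 had an unadjusted p under 0.05, where 5.77% of all genes did. In no member were the 3 libraries of one genotype all above those of the other, where 11.3% of all genes showed that. The log2 fold change of knockout over wild type was positive in 4 members and negative in 6, with a median of −0.07 against 0.0013 over all genes, and the edgeR adjusted p ran from 0.803 to 1.00. A p that misses the threshold does not show that the genotypes are alike, so each member's fitted value below has its 95% interval. Of these intervals 9 exclude a 2-fold change in either direction, and that of Tlr5 includes a 2-fold lower level in the knockout. Without wild-type replicate 1, 0 members were called and 5 fitted values were positive. Members with an unadjusted p under 0.05 numbered 2 without wild-type replicate 3 and 1 without knockout replicate 2 or wild-type replicate 1. They numbered 0 without knockout replicate 1, knockout replicate 3 or wild-type replicate 2.

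**Figure D3:**
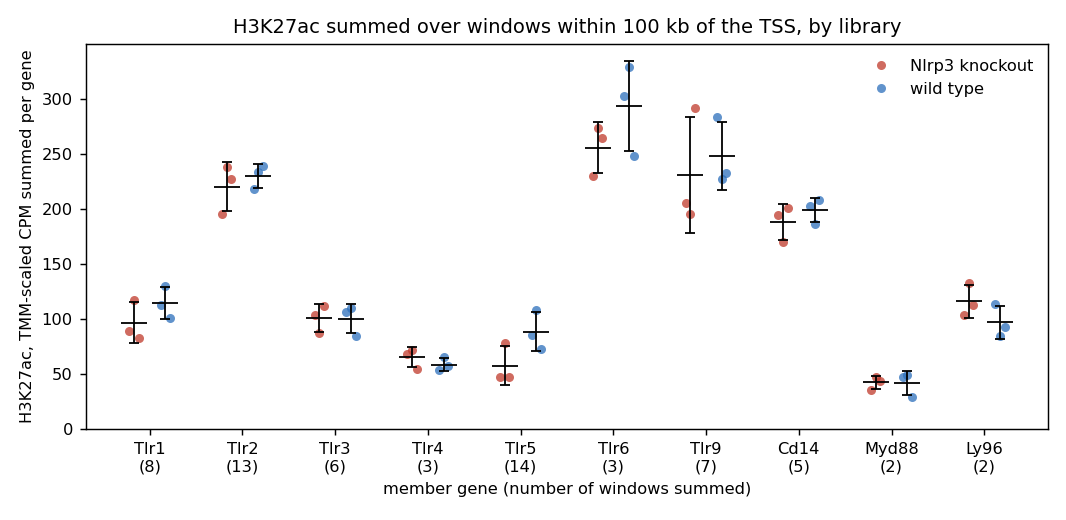
H3K27ac summed over the windows within 100 kb of each gene, as CPM with edgeR's TMM factors (TMM-scaled CPM), with 1 dot per library and bars for the mean ± SD (n = 3 per genotype, knockout left of wild type). The genotypes overlapped in all 10 genes, and Tlr5 averaged 57.6 in the knockout and 88.8 in wild type.

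Tlr5 had the lowest p. Its sum was 47.1, 78.0 and 47.8 TMM-scaled CPM in the knockout libraries, against 85.6, 108 and 72.5 in the wild-type libraries. Only knockout replicate 2 reached into the wild-type range. These sums use the H3K27ac libraries alone and take no account of input, which is given below for the Tlr5 window with the lowest p. The log2 fold change was −0.62 (95% interval −1.17 to −0.07), with an unadjusted p of 0.0287 and an edgeR adjusted p of 0.803. Without knockout replicate 1, knockout replicate 3 or wild-type replicate 2, the log2 fold change was −0.49, −0.50 or −0.46 and the unadjusted p no longer fell under 0.05. Without wild-type replicate 1 it was −0.65, and it was −0.90 without knockout replicate 2 and −0.75 without wild-type replicate 3.

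The other receptors of the cell surface had smaller fitted differences. Tlr6 averaged 256 ± 22.9 TMM-scaled CPM in the knockout and 294 ± 41.2 in wild type (SD, n = 3 each), a log2 fold change of −0.20 (95% interval −0.49 to 0.10). Tlr2 averaged 220 ± 22.2 in the knockout and 230 ± 10.9 in wild type, a log2 fold change of −0.07 (−0.37 to 0.24). The Tlr2 libraries ran from 195 to 238 in the knockout and from 218 to 239 in wild type. Tlr1 averaged 96.6 ± 18.6 in the knockout and 115 ± 14.4 in wild type, at −0.24 (−0.69 to 0.20), and Tlr4 65.4 ± 8.98 in the knockout and 58.6 ± 5.96 in wild type, at 0.16 (−0.39 to 0.70). Single libraries moved these values. Tlr1 was −0.41 without knockout replicate 2, −0.14 without knockout replicate 3 and −0.15 without wild-type replicate 2. Tlr4 was 0.08 without knockout replicate 2, 0.10 without wild-type replicate 1 and 0.26 without knockout replicate 3. Tlr6 was −0.13 without knockout replicate 1, −0.11 without wild-type replicate 2 and −0.31 without wild-type replicate 3.

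The co-receptors, endosomal receptors and adaptor were also spread across both sides of 0. Ly96 had 104, 133 and 113 TMM-scaled CPM in the knockout libraries, against 114, 84.3 and 93.1 in the wild-type libraries, the most positive fitted value of the set at 0.27 (95% interval −0.17 to 0.70). Only wild-type replicate 1 lay inside the knockout range of Ly96, and without it the log2 fold change was 0.39. The Ly96 value was 0.16 without knockout replicate 2, 0.17 without wild-type replicate 2 and 0.13 without overlapping windows. Cd14 averaged 188 ± 16.3 in the knockout and 199 ± 11.0 in wild type, at −0.08 (−0.41 to 0.25). Tlr3 averaged 101 ± 12.7 in the knockout and 101 ± 13.5 in wild type, at 0.0055 (−0.44 to 0.45), and Tlr9 231 ± 52.7 in the knockout and 248 ± 31 in wild type, at −0.10 (−0.44 to 0.23). Myd88, through which most of these receptors signal, averaged 42.6 ± 5.95 in the knockout and 41.7 ± 11.0 in wild type, at 0.03 (−0.62 to 0.69). The Myd88 interval was the widest of the 10.

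**Figure D4:**
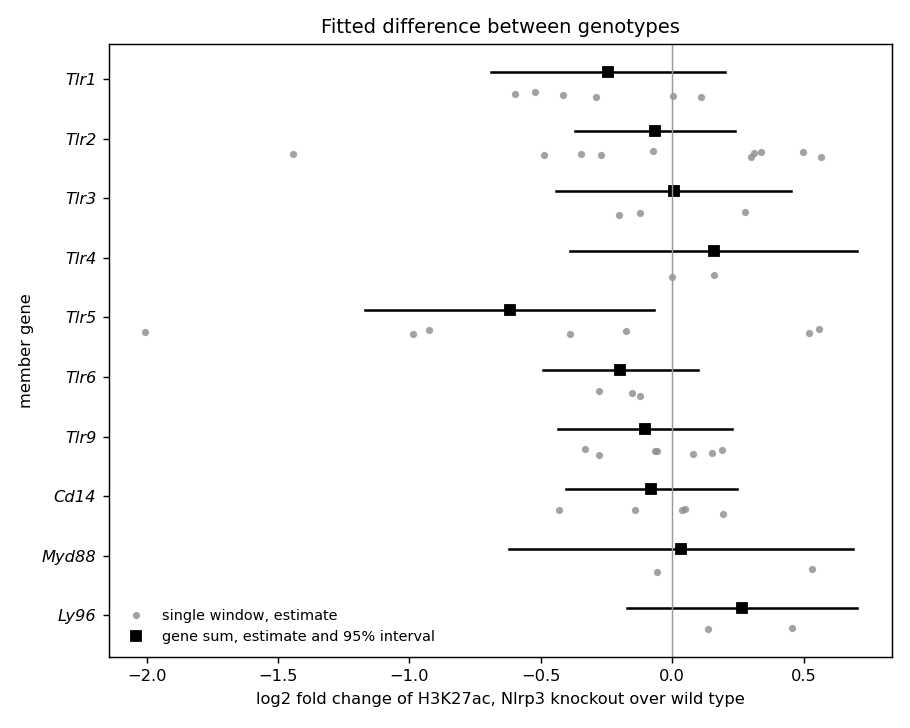
Log2 fold change of H3K27ac, knockout over wild type, with gene sums as black squares with 95% intervals and single tested windows as grey points. The intervals of 9 genes include 0, and that of Tlr5 runs from −1.17 to −0.07.

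Single windows gave no call between genotypes either. Of the 47 tested windows 0 were called by edgeR's quasi-likelihood test, where 0.0595% of all windows were, and 2 had an unadjusted p under 0.05, where 4.69% did. None of the 15 tested promoter windows was among those 2. The fitted difference was positive in 21 windows and negative in 26, and the edgeR adjusted p ran from 0.998 to 1.00. The lowest p belonged to a Tlr5 window 26223 bp upstream (chr1:182928065-182929065), which held 6, 9 and 1 tags in the knockout libraries and 15, 22 and 18 in the wild-type libraries. Its log2 fold change was −2.01 (95% interval −3.76 to −0.26), with an edgeR adjusted p of 0.998, and it overlaps the Tlr5 window 26730 bp upstream, where the knockout libraries held 14, 17 and 4 tags and the wild-type libraries 20, 17 and 19. Relative to input, the Tlr5 window 26223 bp upstream stood at 1.96 times in the knockout and 2.30 times in wild type and was called over input in neither. Its input held 5, 0 and 1 tags in the knockout libraries against 12, 7 and 3 in the wild-type libraries. In the window 26730 bp upstream the input held 2, 0 and 2 tags in the knockout libraries against 11, 5 and 4 in the wild-type libraries. That window stood at 3.89 times input in the knockout and 2.50 times in wild type. The other window with an unadjusted p under 0.05 belonged to Tlr2, 29494 bp downstream (chr3:83811614-83812614). It held 15, 6 and 7 tags in the knockout libraries and 14, 23 and 30 in the wild-type libraries, a log2 fold change of −1.44 (95% interval −2.84 to −0.04). Here the window was called over input in wild type, at 3.65 times, and not in the knockout, at 1.35 times, but the difference between these enrichments was not called (edgeR adjusted p = 0.999). Without wild-type replicate 1 the log2 fold changes of these Tlr5 and Tlr2 windows were −2.09 and −1.65. The number of member windows with an unadjusted p under 0.05 was 0 without knockout replicate 3 or wild-type replicate 2, 1 without wild-type replicate 1 or 3, and 3 without knockout replicate 2.

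In 8 tested windows the genotypes did not overlap in TMM-scaled CPM, where 10.9% of all tested windows showed that. Of these, 5 were lower in the knockout: 2 of Tlr2, 2 of Tlr5 and the Tlr6 window at the TSS. The other 3 were higher in the knockout: the Tlr2 window 2306 bp downstream, the Tlr5 window 19182 bp upstream and the Ly96 window 471 bp downstream. The 2 lower Tlr5 windows, 26730 and 26223 bp upstream, overlap each other and share tags, so they do not count as separate sites. The Tlr6 window averaged 101 ± 8.94 TMM-scaled CPM in the knockout and 123 ± 1.39 in wild type (SD, n = 3 each), a log2 fold change of −0.28 (95% interval −0.66 to 0.11). The Ly96 window averaged 48.9 ± 7.95 in the knockout and 35.7 ± 7.87 in wild type, at 0.46 (−0.13 to 1.04). Among the 16 windows too low to test, a Tlr2 window 43707 bp upstream held 0, 0 and 2 tags in the knockout libraries and 8, 7 and 16 in the wild-type libraries. An untested Tlr4 window 15887 bp downstream held 9, 24 and 4 tags in the knockout libraries and 3, 2 and 4 in the wild-type libraries.

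The rest of the pathway gave no call either. Lists of adaptors and kinases, other receptors and their partners, transcription factors, feedback inhibitors and target genes held 76 genes, of which 74 had a window within 100 kb and 69 were tested. None was called in either direction by edgeR's quasi-likelihood test, where 0.206% of all genes were. Of the 69, 4 had an unadjusted p under 0.05, where 5.77% of all genes did, a share close to theirs, and 37 fitted values were positive and 32 negative. The list medians ran from −0.11 for the transcription factors to 0.11 for the feedback inhibitors, against 0.0013 over all genes. Tab2, which links Traf6 to the kinase Tak1, had the lowest p of the adaptors and kinases, averaging 175 ± 15.8 TMM-scaled CPM in the knockout and 235 ± 27 in wild type (log2 fold change −0.43, 95% interval −0.75 to −0.10, edgeR adjusted p = 0.640). Socs1, an inhibitor of cytokine and Toll-like receptor signalling, averaged 83.0 ± 4.82 in the knockout and 54.8 ± 18.3 in wild type (log2 fold change 0.60, 95% interval 0.04 to 1.15, edgeR adjusted p = 0.826). Irf8, a transcription factor of microglia and macrophages, averaged 357 ± 12.5 in the knockout and 428 ± 19.1 in wild type (log2 fold change −0.26, 95% interval −0.50 to −0.02, edgeR adjusted p = 0.815). The target gene Il6, an inflammatory cytokine, had a log2 fold change of −0.41 (95% interval −0.77 to −0.06, edgeR adjusted p = 0.780), and Hsp90b1, a chaperone that folds Toll-like receptors, one of −0.37 (95% interval −0.77 to 0.03, edgeR adjusted p = 0.892).

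**Figure D5:**
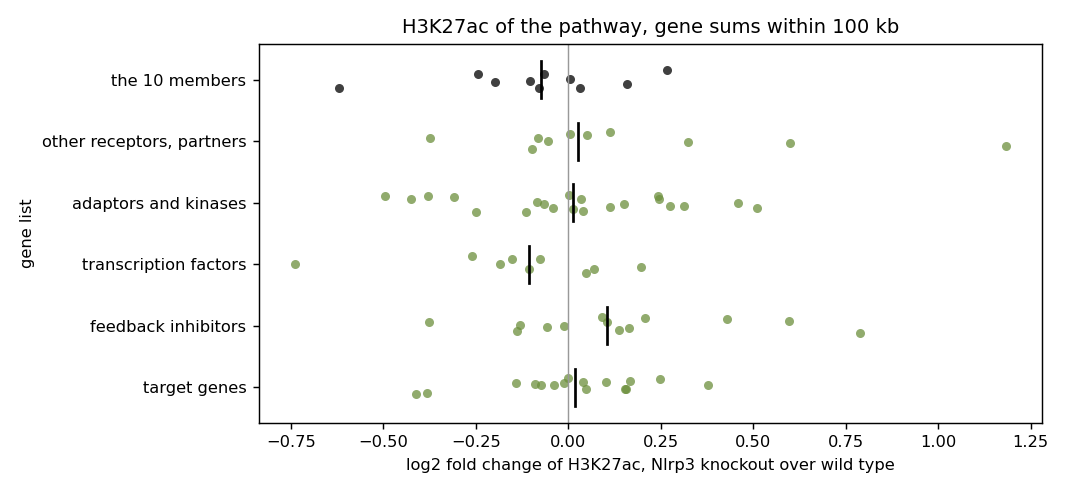
Log2 fold change of H3K27ac, knockout over wild type, for every tested gene of the 10 members and the 5 pathway lists, with a vertical line at each median. The member median was −0.07, and the list medians ran from −0.11 to 0.11.

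Of the Toll-like receptors outside the set, 4 were tested and 0 were called, where 0.206% of all genes were, a share at which no call among 4 genes shows little. Tlr7, an endosomal sensor of single-stranded RNA, averaged 178 ± 2.96 TMM-scaled CPM in the knockout and 188 ± 34.8 in wild type, a log2 fold change of −0.08 (95% interval −0.43 to 0.27). Tlr13, an endosomal receptor of mouse microglia and macrophages that binds bacterial ribosomal RNA, averaged 119 ± 8.24 in the knockout and 110 ± 23.9 in wild type, at 0.11 (−0.32 to 0.54). Tlr11 averaged 14.7 ± 3.70 in the knockout and 6.43 ± 2.74 in wild type, a log2 fold change of 1.18 (95% interval −0.10 to 2.47) with an edgeR adjusted p of 0.892, on 22, 29 and 33 tags in the knockout libraries and 7, 16 and 9 in the wild-type libraries. Tlr12 had a log2 fold change of 0.32 (95% interval −0.29 to 0.94), and Tlr8 was too low to be tested.

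Over the 6 H3K27ac libraries, the genes whose summed levels varied most like those of a member were listed for the 3 members with the highest level per window. They were Galnt4 and 9630028I04Rik for Tlr6 (Pearson r of 0.980 and 0.979), Esco1 and Baz1a for Ly96 (0.991 and 0.986), and Pam16 and Srpk1 for Cd14 (0.996 and 0.994). Each is the top of 12147 genes compared over 6 points that share library depth and preparation, and 47, 69 and 143 genes exceeded an r of 0.9 for Tlr6, Ly96 and Cd14.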

How the data were processed

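The deposited table held raw tag counts, whole numbers with no normalization, in 1000 bp windows merged from wild-type and knockout site lists. Per the file headers, the authors counted tags with HOMER on mm10, and per the submitters' processing notes DESeq2 was also used. Not given in the sources used here are the aligner, the duplicate handling and tool versions. The scaled version of the table was not used. Windows follow the site lists, so acetylation elsewhere was not measured, and 14 of the 63 windows overlap the one before and share tags.

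The counts were compared with edgeR 4.0.16 in R 4.3.3: filterByExpr, TMM factors, a quasi-likelihood fit of 3 knockout against 3 wild-type libraries without covariates, and Benjamini-Hochberg adjustment over all 12148 genes or 40370 windows tested, with a threshold of 0.05. Intervals rest on a standard error taken as the log2 fold change divided by the root of F. Levels in TMM-scaled CPM have the TMM-normalised total of the counted features the filter kept as their base, and are higher than library CPM, which uses all tags. H3K27ac over input was the ratio of group means on the library scale with 0.5 added to both, and it was tested with edgeR on all 12 libraries with total tags as library size. No molecular identifiers are described, so counts may include copies of the same fragment. The fit of knockout against wild type was tested on simulated counts, and the fit against input was not. Of simulated 2-fold changes, 40% were called in genes and 12.1% in windows. Of simulated 4-fold changes, 80.6% were called in genes and 67.0% in windows. Promoter windows lay within 1 kb of a TSS. Gene and promoter coordinates came from RefSeq on GRCm38.p6, the same build as mm10.

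For each member the windows named were that nearest the TSS, that with the highest level and that with the smallest p, and others named were chosen after their values were seen. In each pathway list the gene with the smallest p was named where none was called. The Toll-like receptors outside the set were all given. The members and lists were chosen with earlier results of these data known. Other scalings, DESeq2 1.42.0, no filter, a replicate block, other distances and each library left out were tried as alternatives.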

Additional observations from a re-analysis of the deposited data

How the results depend on the processing

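No member gene, window or promoter and no pathway gene was called between genotypes under any alternative run: DESeq2 or its size factors, total-tag scaling, no filter, the replicate block, each H3K27ac library left out, windows within 50 kb or 1 kb (genes), and overlapping windows left out, which was chosen after seeing the data. The genes called in the whole table numbered 25, against 38 with DESeq2, 48 without the filter, 16 with total-tag scaling, 15 with the replicate block and 1 within 1 kb. Windows over input numbered 43 in the knockout and 42 in wild type, 7 and 9 with TMM normalization, which sets most windows level with input, and 39 to 43 and 39 to 45 with a library left out. Same-numbered libraries correlated by −0.006 to 0.0127 across genotypes in their deviations from the group means. Such values cannot settle whether the numbers pair libraries. In wild type, H3K27ac and input of replicate 1 both held 0 tags at the Y-linked promoters, yet their deviations correlated by only 0.013. With the replicate block 0 members were called. With H3K27ac and input of the same number blocked together, 43 windows were over input in the knockout and 41 in wild type. Log2 fold changes near 0 changed sign. Tlr3 (0.0055) gave −9.1e-05 with total-tag scaling, −0.21 within 1 kb, −0.12 without overlapping windows and −0.11 to 0.10 with an H3K27ac library left out. Over those left-out libraries Tlr2 (−0.07) gave −0.13 to 0.012, Tlr9 (−0.10) −0.31 to 0.0017 and Myd88 (0.03) −0.18 to 0.16, with −0.062 for Myd88 within 1 kb. The cause was not tested. Low tag counts limit single windows, of which 16 of 63 could not be tested. The Tlr5 sum (−0.62) was −0.56 within 1 kb and −0.50 without overlapping windows, with unadjusted p not under 0.05.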
